A study of Mus musculus with 4 samples.

Results

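The cells described here are mouse retinal ganglion cells that carried transcripts of Neurod2 and little of the peptide transcript Cartpt. They made up 68 of the 948 barcodes that met a ganglion cell gate (7.17%, exact interval 5.61% to 9.01%), out of 3237 barcodes in all. The gate asked for 1 or more unique molecular identifiers (UMIs, each a counted transcript molecule) of Slc17a6, 3 or more of Rbpms and Slc17a6 together, at most 1 of Lhx1, and under 10% of UMIs from mitochondrial genes. Slc17a6 encodes the vesicular glutamate transporter of ganglion cells, Rbpms is a general ganglion cell marker and Lhx1 marks horizontal cells. Members had 2 or more Neurod2 UMIs and fewer than 20 Cartpt UMIs. They were compared with the 803 gate barcodes without a Neurod2 UMI and with the 37 that had as much Neurod2 but 20 or more Cartpt UMIs. The 40 gate barcodes with exactly 1 Neurod2 UMI were in none of these classes.

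The series holds 4 retinas of C57BL/6 mice aged 3 months, all in 1 group, with no other treatment or genotype named. Cells bearing GFP from a Brn3b reporter were sorted before droplet capture with 10x Chromium 3′ V2 chemistry. Brn3b is the protein made from Pou4f2, so the sort itself favours cells that use that gene's regulatory sequence. All barcodes form 1 pooled matrix in which none is tied to a retina, and every comparison below is between sets of barcodes of that 1 sample. No p-value, standard error or replicate spread can be given, and intervals cover counting error only, at 95%. Members held 4711 to 41298 UMIs, with a median of 15008.5. The median was 15893 in barcodes without Neurod2 and 18976 in the Cartpt-rich ones, and the median mitochondrial shares were 4.64%, 3.93% and 3.42%. All 3237 barcode sequences were distinct.

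Neurod2 encodes a basic helix-loop-helix (bHLH) transcription factor that pairs with an E protein and binds short E-box sequences in DNA, and it is best known for its part in the differentiation of excitatory neurons. Penk encodes proenkephalin, the precursor that is cut into the enkephalin opioid peptides. Meis2 is a TALE-class homeobox factor that works with PBX partners, and Prdm8 is a PRDM-family repressor of transcription. Apela encodes a small secreted ligand of the apelin receptor. In the mouse retina, Neurod2, Penk and Prdm8 have been used together as markers of a group of small ganglion cell types.

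Because members were chosen by a bHLH gene, 250 bases before a RefSeq start of that gene and of Prdm8 are shown. Prdm8 was the gene with the highest ratio in members. The windows are from build GRCm38.p6 and read 5′ to 3′ on the strand of the gene. The windows of Prdm8 and Meis2 lie inside the gene spans given below, which come from another annotation with earlier starts. The Neurod2 window is chr11:98329646-98329895 on the minus strand and the Prdm8 window chr5:98180619-98180868 on the plus strand. Capitals mark 2 E-box motifs, and both strands were searched for these 2 only. Other E-box forms (CANNTG) were not searched and stay in lower case, such as caggtg in the Prdm8 window and catgtg in the Neurod2 window. The first motif is CAGATG, which is written in reverse complement as CATCTG. The second motif reads the same on either strand and is CAGCTG. The 2 motifs did not overlap in these windows.
Neurod2: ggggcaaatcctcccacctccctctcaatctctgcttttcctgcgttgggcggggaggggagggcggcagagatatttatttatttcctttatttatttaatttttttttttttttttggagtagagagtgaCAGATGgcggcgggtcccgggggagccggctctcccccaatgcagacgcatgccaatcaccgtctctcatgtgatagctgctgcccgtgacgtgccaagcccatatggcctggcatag
Prdm8: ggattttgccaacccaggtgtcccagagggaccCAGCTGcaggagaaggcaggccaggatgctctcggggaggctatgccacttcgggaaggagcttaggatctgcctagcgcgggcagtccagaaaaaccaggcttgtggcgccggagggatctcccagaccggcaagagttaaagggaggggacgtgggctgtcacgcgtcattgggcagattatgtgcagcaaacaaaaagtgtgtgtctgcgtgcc
The Neurod2 window held 1 CAGATG and the Prdm8 window 1 CAGCTG, while the windows of Meis2 and Tshz2 held neither. Of 32851 windows of the same length over all genes, 14.4% held CAGATG, 13.0% CAGCTG and 25.5% either. Of the 15 highest genes in members by the naming rule, 11 were in the promoter table, with 13 windows, of which 7 held either motif. Of the 10 lowest genes, 9 were in the table, with 14 windows, of which 3 held either. In the Penk division described below, 3 of 8 windows of the highest genes and 3 of 8 of the lowest held either. Whether these shares differ from that of all windows was not tested. All are letter matches in a window, and binding was not measured.

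The label was checked first against 5 markers of these cells: Neurod2, Penk, Meis2, Apela and Prdm8. Neurod2 was set by the rule, at 2 to 12 UMIs per member with a median of 4. Meis2 was present in 64, Prdm8 in 41 and Penk in 35 of the 68 members, but Apela (chromosome 8, 65028417 to 65037336) had no UMI in any of the 68 members. A count of 0 of 68 allows a share of members with a UMI of up to 4.41% when 3 counts are set as the limit, and up to 5.28% by the exact interval. All 26 gate barcodes that carried Apela had no Neurod2. Of those 26, 24 also had Meis2 and 14 had Penk. Apela therefore goes against the label, and the cells are called Neurod2 cells with low Cartpt by their rule.

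Meis2 (chromosome 2, 115863064 to 116065839) was the most uniform of the markers that the rule did not use. It ran from 0 to 20 UMIs per member with a median of 8, and 64 of the 68 members had 2 or more. The remaining 4 members had none, so no member had exactly 1. Over all members Meis2 reached 492.7 CPM (a gene's UMIs scaled to the same total in each class, 452 to 536), against 57.0 CPM (53.1 to 61.2) without Neurod2. Meis2 was not limited to these cells. Of the 164 gate barcodes with 2 or more Meis2 UMIs, 64 were members, 18 had 1 Neurod2 UMI, 5 were Cartpt-rich and 77 had no Neurod2.

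Prdm8 (chromosome 5, 98167198 to 98188991) was seen in 41 members, at 0 to 9 UMIs with a median of 1. It was sparse, and 38 members had it together with Meis2. Penk (chromosome 4, 4133531 to 4138819) was split: 33 members had none, 5 had 1 or 2 UMIs and 30 had between 3 and 27.

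To hold depth equal, each barcode was thinned to 11500 UMIs, which left out 6 members and 140 barcodes without Neurod2. A Meis2 UMI was then found in 95.2% of 62 members (86.5% to 99.0%) and 13.1% of 663 barcodes without Neurod2 (10.6% to 15.9%). The shares for Prdm8 were 58.1% and 4.68% and for Penk 48.4% and 7.54%. Horizontal cells should lack these genes and show the level of free RNA. In 138 barcodes of a horizontal cell gate (3 or more Lhx1 UMIs, no Slc17a6) at the same depth the shares were 1.45%, 0.725% and 0.725% in the same order. Thinning left out 165 of the 303 barcodes of that gate, and the median depth of the gate before thinning was 11381 UMIs. Cartpt was found in 46.4% of the 138 thinned horizontal gate barcodes, so a UMI or so of Cartpt in a member is at the level of background. Without thinning, Meis2 was found in 94.1% of members, Prdm8 in 60.3% and Penk in 51.5%.

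**Figure D1:**
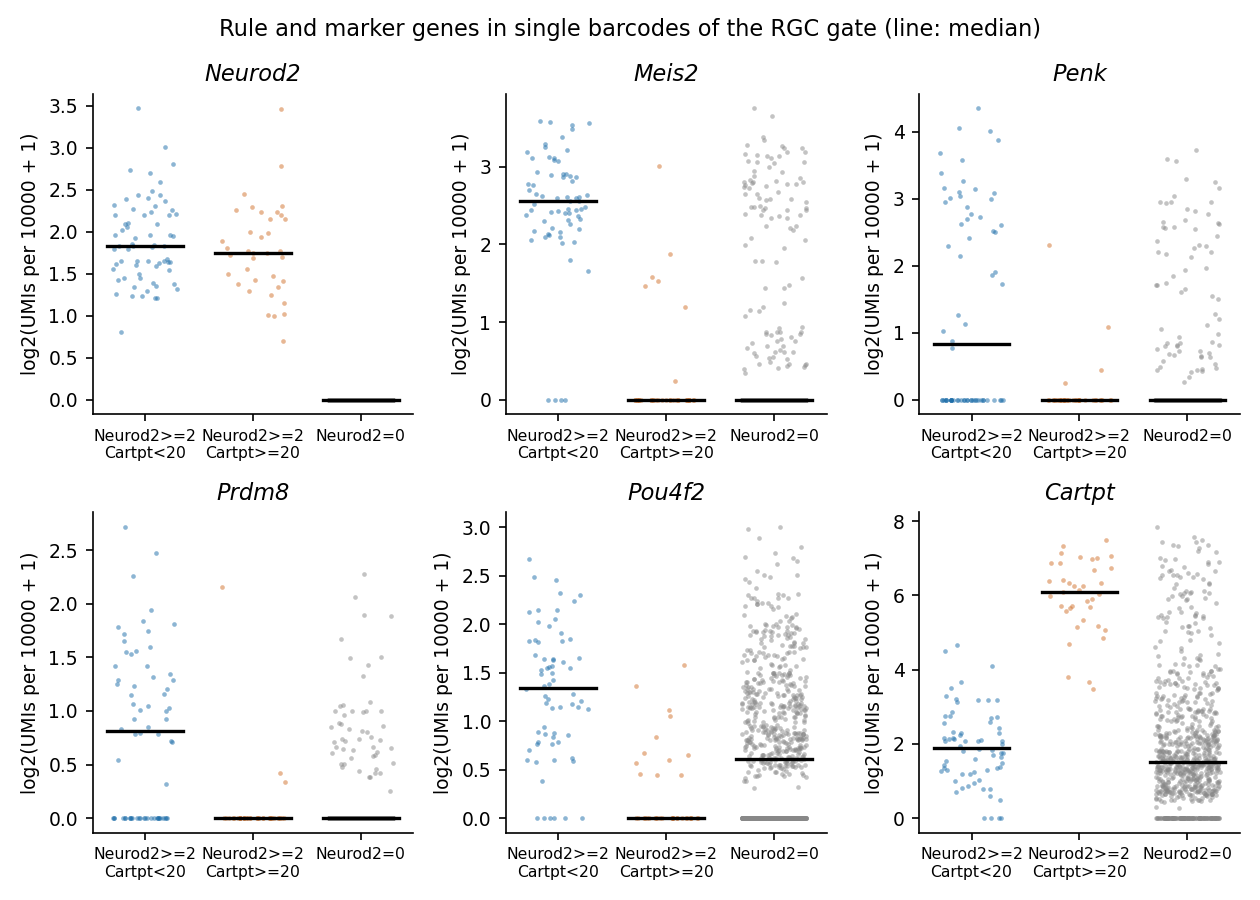
Level of 6 genes in single barcodes, as log2(UMIs per 10000 UMIs + 1), in the 68 members (blue), the 37 Cartpt-rich Neurod2 barcodes (orange) and the 803 barcodes without Neurod2 (grey); lines are medians. Meis2 lies in a band well above 0 in 64 members with 4 at 0, Penk is split between 0 and high values, and Neurod2 and Cartpt are set by the rule.

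The edges of the rule were looked at once. The 33 gate barcodes just outside it, with 1 Neurod2 UMI and fewer than 20 of Cartpt, had Meis2 in 17 and a Meis2 level of 243 CPM. The 12 members just inside it, with 2 Neurod2 UMIs, all had Meis2, at 574 CPM. At the Cartpt edge, the 13 members with 10 to 19 Cartpt UMIs had Meis2 in 12 and Penk in 1, where it was a single UMI. The 9 barcodes with 20 to 59 Cartpt UMIs had Meis2 in 3. Members near the Cartpt limit were thus almost all without Penk.

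Set against barcodes without Neurod2, members had Prdm8, the prolactin receptor gene Prlr, Amhr2, Penk and Meis2 among their highest ratios. A broad set of genes that mark other ganglion cell types stood low. Of the 9515 genes that summed to 100 UMIs or more, 105 (1.10%) were 2-fold or more higher in members and 437 (4.59%) 2-fold or more lower. The counts depend on the rule: they were 177 and 658 for the 35 barcodes with Cartpt under 5 UMIs, and 69 and 268 with Neurod2 of 1 or more. The balance of the 2 counts depends on the gene minimum, and with no minimum beyond 1 UMI they were 1293 higher and 908 lower. Of 101 genes followed by name that were past 2-fold, 40 fell short of it or turned when barcodes with 1 Neurod2 UMI were counted as members. The median log2 ratio of all 9515 genes was -0.01. Members were chosen by 1 gene of the same cells, so these ratios describe them and carry no test.

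Among the higher genes, Prdm8 was at 92.8 CPM in members and 6.52 CPM without Neurod2, 14.2-fold higher (10.6 to 19.1). Prlr was found in 41 of 68 members and 58 of 803 other barcodes, 13.6-fold higher (10.1 to 18.4). Amhr2, which encodes the receptor of anti-Müllerian hormone, was found in 43 members and 58 other barcodes. Penk was 11.6-fold higher (9.96 to 13.4), at 314 CPM against 27.2 CPM, although 33 members had none. Meis2 was 8.64-fold higher (7.73 to 9.65). Other genes named by the rule were between 4.35-fold and 9.11-fold higher: Fibin, Anxa3, Entpd2, Tmie, Hebp1, Inpp4b, Shisa9, Evc2 and Lrrc3b. Entpd2 encodes an enzyme that breaks down extracellular ATP, and Inpp4b a phosphoinositide phosphatase. Of the Entpd2 UMIs of members, 22.7% came from 1 barcode.

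The bHLH list held the possible partners and relatives of Neurod2. Of its 14 genes tested, 2 were higher and 4 lower. For each list in this comparison, the shares of all 9515 genes to set beside it are 1.10% higher and 4.59% lower. Tcf4, which encodes an E protein of the kind that pairs with NEUROD factors, was at 138 CPM in members and 36.1 CPM in the others, 3.83-fold higher (3.18 to 4.60). Neurod1, the close relative of Neurod2, was found in 46 of 68 members and 252 of 803 other barcodes and was 3.54-fold higher (2.81 to 4.44). Id4, whose protein binds E proteins without binding DNA, was 3.36-fold lower (2.26 to 5.22), and 1.80-fold lower when barcodes with 1 Neurod2 UMI were counted as members. Nhlh2 had 2 UMIs in members, and Hes1 and Hes5, which encode repressors downstream of Notch, had 10 and 6. With a mitochondrial maximum of 5%, Hes1 and Hes5 were short of 2-fold, at 1.93-fold and 1.55-fold lower. The list's median log2 ratio was -0.30, against -0.01 for all genes.

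Of the transcription factors that mark ganglion cell types and met the minimum, more were lower than higher in members. Of 47 tested, 2 were 2-fold or more higher and 20 lower, with a median log2 ratio of -0.64. Some of the 20 passed the minimum only through barcodes without Neurod2, such as Runx1 (0 against 141 UMIs) and Lmo2 (1 against 108). Those barcodes were taken as 1 class and not divided by ganglion cell type, so the counts set members against a mixture. The 2 higher genes were the POU4F genes Pou4f2, at 169 CPM against 81.0 CPM (2.08-fold, 1.78 to 2.43), and Pou4f3, at 129 CPM against 57.8 CPM (2.24-fold, 1.86 to 2.68). With Neurod2 of 1 or more, both were short of 2-fold, at 1.80-fold and 1.99-fold. Pou4f1 was near equal, at 429 CPM and 468 CPM. Zfhx3, which encodes a large zinc finger homeobox factor, was 16.3-fold lower (10.3 to 27.5): 12 of 68 members and 686 of 803 other barcodes had it. The LIM homeobox gene Isl2 was 11.6-fold lower (5.63 to 29.0). Its relative Isl1 was 1.42-fold higher (1.24 to 1.61), so the pair of ISL genes differed in direction. The Iroquois genes Irx4 and Irx2 were at 2 and 7 UMIs in all members together. Bcl11a, which is on the list of Prdm and Satb factors and not among these 47, had no UMI in members and 453 in the others. It was at least 12.5-fold lower when 3 counts are set as the limit for the class. Zic1 also had none in members and was found in 41 barcodes without Neurod2, of which 27 had Penk. No barcode without Neurod2 had both Zic1 and Apela. With barcodes of 1 Neurod2 UMI counted as members, Isl2 was 2.51-fold, Zfhx3 3.85-fold, Irx2 2.16-fold and Zic1 1.59-fold lower. With Cartpt under 5 UMIs, Isl2 was 40.9-fold lower.

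Of the Meis and Pbx genes, 1 of 8 tested was higher, Meis2 itself, and none was 2-fold lower. Prdm16, of the same family as Prdm8, had 4 UMIs in members and was 2.72-fold lower (1.04 to 10.1), and 1.67-fold lower with Neurod2 of 1 or more. Satb1, which encodes a chromatin-organizing factor, was 1.32-fold higher (1.06 to 1.63).

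Of the peptide and secreted factor genes other than Penk that met the minimum, more were lower than higher. Of 22 tested, 0 were 2-fold higher and 9 lower, with a median log2 ratio of -0.74. Some passed the minimum only through barcodes without Neurod2: Crh had 0 UMIs in members and 102 in the others, and Npy 2 and 177. The split of 0 and 9 is thus partly set by the minimum. Among the 9 were Crh and Npy, for which 1 barcode without Neurod2 held 45.1% and 32.8% of that class's UMIs. Cck, the cholecystokinin gene, had 4 UMIs in members and was 29.0-fold lower (11.3 to 107). Igf1 was 12.4-fold lower (7.10 to 24.1) and the substance P precursor gene Tac1 11.2-fold lower (6.90 to 19.7). Spp1, the osteopontin gene, had 1 UMI in all members and 76.1 CPM in the others, where it was found in 71 of the 803 barcodes. Counting barcodes with 1 Neurod2 UMI as members left Spp1 1.38-fold lower, short of the 2-fold limit. Under that setting Cck was 8.50-fold, Igf1 4.10-fold and Tac1 3.29-fold lower. The genes that cut and package peptide precursors did not share this pattern, with 0 higher and 1 lower of 19 tested and a median log2 ratio of 0.22. The 1 lower gene was Pam, the peptide amidating enzyme, at 48.2 CPM against 127 CPM (2.64-fold lower, 2.01 to 3.53). Of the 4 opioid genes tested, Penk alone reached 2-fold.

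Adhesion and guidance genes were 2-fold higher in 2 and lower in 18 of 62 tested, with a median log2 ratio of -0.31. Pcdh19, a protocadherin gene, was found in 53 of 68 members and was 3.17-fold higher (2.53 to 3.95). Kirrel3, an immunoglobulin-family adhesion gene, was 2.50-fold higher (1.68 to 3.61), but short of 2-fold after thinning (1.69-fold) and with Neurod2 of 1 or more (1.76-fold). Pcdh8 was 14.1-fold lower (5.49 to 52.0), and the sidekick gene Sdk2 had 2 UMIs in members and was 12.3-fold lower (3.38 to 102). With Neurod2 of 1 or more, Pcdh8 was 5.12-fold and Sdk2 2.92-fold lower.

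Among receptors, 1 of 47 tested was higher and 10 lower, although the list's median log2 ratio was 0.13. Chrna3, a nicotinic receptor subunit gene, had no UMI in members and 465 in the others, at least 12.9-fold lower. Lypd6 and Lypd1, which encode modulators of nicotinic receptors, were at 5 and 2 UMIs in members, against 1262 and 725. The GABA-A receptor subunit gene Gabrg3 had 2 UMIs, both in 1 member. Of 44 channel genes tested, the potassium channel genes Kcna6 (2.28-fold, 1.98 to 2.61) and Kcnk2 (2.17-fold, 1.59 to 2.91) were higher and 4 were lower. With Neurod2 of 1 or more, Kcna6 (1.88-fold), Kcnk2 (1.83-fold) and the release gene Cplx1 (1.79-fold) were short of 2-fold. Of 24 calcium-binding and release genes, 1 was higher and 7 lower. The complexins, small proteins that control vesicle fusion, went opposite ways: Cplx1 was 2.03-fold higher (1.88 to 2.19), at 722 CPM against 356 CPM, and Cplx2 3.00-fold lower (2.52 to 3.59), at 117 CPM against 350 CPM. Axon cytoskeleton genes had 1 lower of 20 tested (5%), the peripherin gene Prph with 2 UMIs in members. Immediate-early and stress genes had 1 lower of 19 (5.26%). Both shares were near the 4.59% of all genes that were lower. Serine synthesis genes had none past 2-fold of 9.

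**Figure D2:**
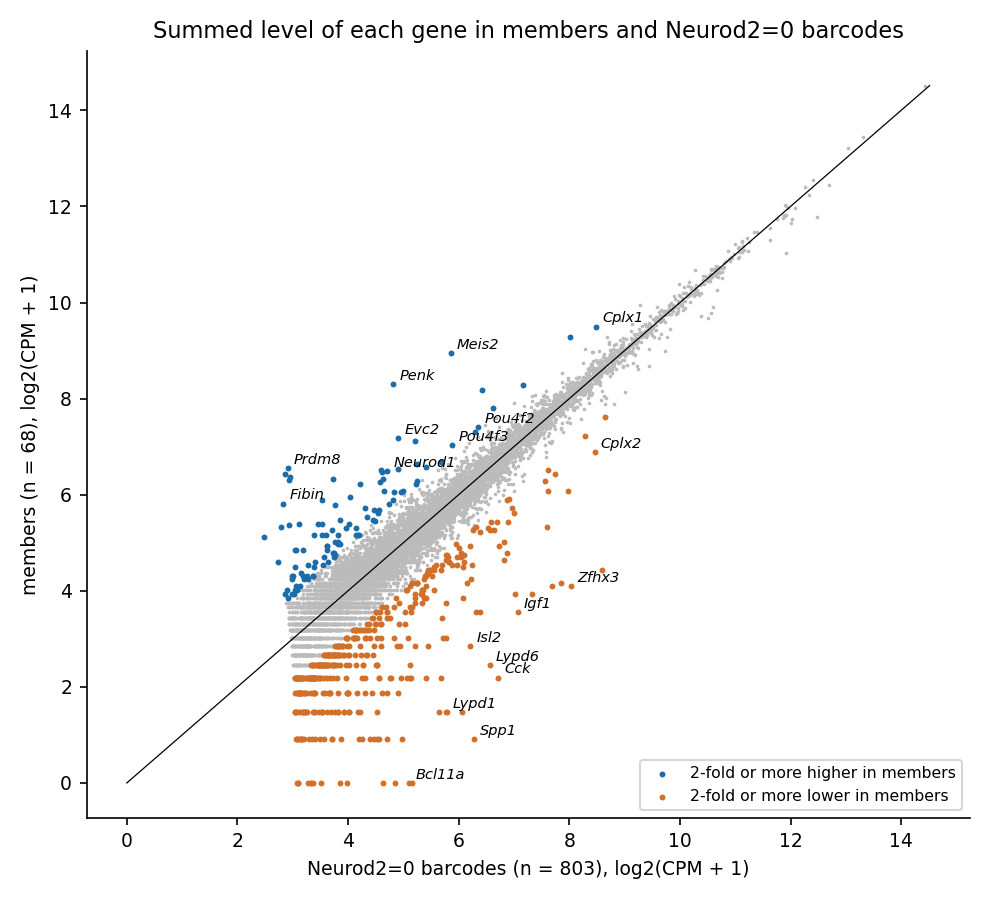
Level of each of the 9515 genes tested as log2(CPM + 1), summed over the 68 members (vertical) and over the 803 barcodes without Neurod2 (horizontal); blue and orange points are 2-fold or more higher or lower in members and the line marks equal levels. Meis2 and Penk lie far above the line at high level.

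Markers of other retinal cell types were present in both classes. The 7 rod markers summed to 1009 CPM in members and 781 CPM without Neurod2, with 0 to 284 UMIs per member and a median of 8. The 9 bipolar markers summed to 301 CPM and 278 CPM, with Vsx1 at 0 in members, and the 7 microglia markers to 129 CPM and 84.8 CPM. Of the 6 horizontal cell markers, which summed to 285 CPM and 430 CPM, Lhx1 and Onecut1 were at 0 in members, and all 3 pericyte markers were at 0. The gate itself limits Lhx1 to at most 1 UMI. The horizontal set also holds Calb1 and Onecut2, which are on the lists of calcium-binding genes and of ganglion cell transcription factors. Its sums are therefore not a measure of horizontal cell RNA alone. In 5 members, markers of at least 1 other class reached 50 UMIs or more. Without barcodes of that kind, the counts were 104 higher and 403 lower genes, and this setting was chosen after seeing the data. A doublet caller marked 2 of 68 members, 25 of 803 barcodes without Neurod2 and 2 of 37 Cartpt-rich ones.

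The members themselves were then divided by Penk, with 30 at 3 or more UMIs and 33 at 0. Members with Penk had Tshz2, Nnat, Vax2 and Ebf3 high, and members without it had Irx6, Cpne5, Pcdh17 and Ddah1 high, while Meis2 and Pou4f2 were at like levels in both. Of 3617 genes with 50 or more UMIs over both sides, 47 (1.30%) were 2-fold or more higher with Penk and 72 (1.99%) lower. Median depths were 13999.5 UMIs with Penk and 15649 without.

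Tshz2 (chromosome 2, 169633013 to 170071816), a teashirt-family zinc finger gene, had 2 to 19 UMIs in each of the 30 members with Penk, with a median of 7. It was found in 9 of the 33 without Penk, at 0 to 7 UMIs with a median of 0. The ranges overlapped between 2 and 7 UMIs, and the summed level was 487.8 CPM against 39.3 CPM, 12.4-fold higher (8.07 to 19.97). Irx6 (chromosome 8, 92674288 to 92680956), an Iroquois homeobox gene, ran the other way. It was found in 5 of 30 members with Penk, at 0 to 2 UMIs with a median of 0, and in 32 of 33 without Penk, at 0 to 8 UMIs with a median of 3. Its level was 14.98 CPM against 171 CPM, 11.4-fold lower with Penk (5.34 to 29.1). Over all 68 members, 28 had Tshz2 only, 24 Irx6 only, 15 both and 1 neither.

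**Figure D3:**
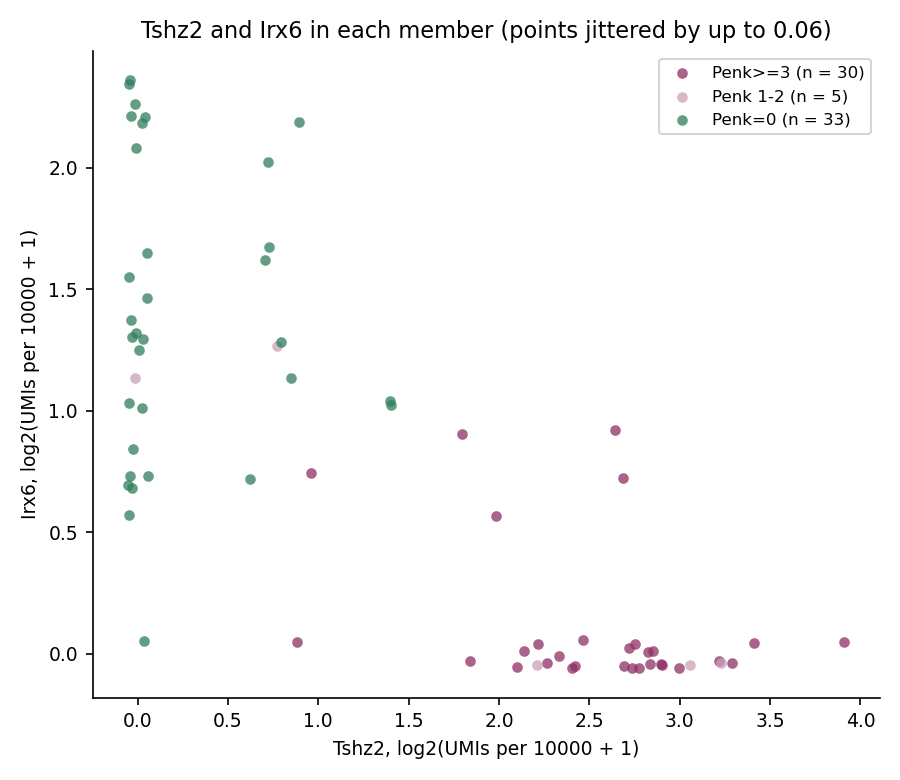
Tshz2 (horizontal) and Irx6 (vertical) in each member, both as log2(UMIs per 10000 UMIs + 1), coloured by Penk UMIs (30 members at 3 or more, 5 at 1 or 2, 33 at 0). Members with Penk lie along the lower right and members without it along the upper left.

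Among other transcription factors, Vax2, a homeobox gene of the ventral retina, was found in 26 of 30 members with Penk and 11 of 33 without, 3.88-fold higher (2.56 to 6.01). After thinning, Vax2 was found in 53.2% of members and also in 37.0% of horizontal gate barcodes. Ebf3 was 3.47-fold higher with Penk (2.33 to 5.26), whereas Ebf1 was 2.08-fold lower (1.81 to 2.39), at 603 CPM against 1253 CPM. With Penk of 1 or more, Ebf1 was 1.98-fold lower. Hes6 was 2.24-fold higher (1.24 to 4.16). Pou4f3 was 1.91-fold higher (1.34 to 2.76) and Pou4f1 1.64-fold higher (1.36 to 1.98), both under 2-fold. Neurod2 was at 302 CPM and 248 CPM, and Meis2 at 464 CPM and 519.6 CPM. Prdm8 was 1.71-fold higher with Penk (1.12 to 2.62).

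The remaining genes higher with Penk were of mixed kinds. Nnat, an imprinted gene for a small membrane proteolipid, was 8.55-fold higher (4.64 to 17.2), and 3.71-fold higher with Penk of 10 or more. Caln1, which encodes a calmodulin-like protein, was 5.10-fold higher (2.80 to 9.90), and the glutathione peroxidase gene Gpx3 4.41-fold higher (2.69 to 7.54). Nrgn, the gene of the calmodulin-binding protein neurogranin, Csmd3, Tmem158, Cpne9, Fam19a2 and Tmie were between 3.47-fold and 4.34-fold higher. The adhesion ligand gene Efna5 was 2.36-fold higher (1.30 to 4.45), and 1.58-fold higher after thinning.

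Among the lists, voltage-gated channels had 0 genes higher and 1 lower with Penk of 26 tested, and transmitter receptors 0 higher and 2 lower of 20. Of all genes in this division, 1.30% were higher and 1.99% lower. Cpne5, a copine gene for a calcium-dependent membrane-binding protein, had 2 UMIs in members with Penk and 66 in 19 of the 33 without it, 26.4-fold (7.02 to 222). Wscd1 had 1 UMI against 54, in 12 members. The protocadherin gene Pcdh17 was 8.47-fold lower with Penk (3.41 to 27.2) and Ddah1, which encodes an enzyme that clears methylated arginine, 5.44-fold lower (3.59 to 8.56). The potassium channel genes Kcnc4 and Kcnb2 were 4.29-fold and 3.34-fold lower with Penk. Kcnb2 is the 1 lower gene of the channel list, and Kcnc4 is not on that list. Cplx1 was 3.03-fold lower with Penk (2.55 to 3.63), at 349 CPM against 1058 CPM. Cplx2, Necab2 and the receptor auxiliary gene Cacng3 were lower by 2.02-fold, 2.50-fold and 3.11-fold. Cplx2 was 1.94-fold lower without doublet calls. Of the 809 Cplx1 UMIs of all members, 619 were in members without Penk. Cartpt, limited by the rule, was at 205 CPM with Penk and 446 CPM without.

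Immediate-early genes, which respond to activity and to tissue handling, had 3 of 12 tested 2-fold higher with Penk and 0 lower. Their median log2 ratio was 0.34 against -0.01 for all genes, of which 1.30% were 2-fold higher and 1.99% lower. Jun had 0 to 28 UMIs with Penk, with a median of 7, and 0 to 12 without, with a median of 4, and was 2.32-fold higher (1.90 to 2.84). Npas4 was 2.45-fold higher (1.47 to 4.19) and Ier2 2.2-fold higher (1.41 to 3.48), and Ier2 was 1.99-fold higher without doublet calls. Summed microglia markers were 237 CPM with Penk and 54.7 CPM without, and 80 of their UMIs were in 1 member. Bipolar markers were at 430 CPM and 209 CPM, with 96 UMIs in 1 member. Both doublet calls fell among members with Penk. Without the 4 members of this comparison that had 50 or more UMIs of another class's markers, 37 genes were higher and 56 lower.

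**Figure D4:**
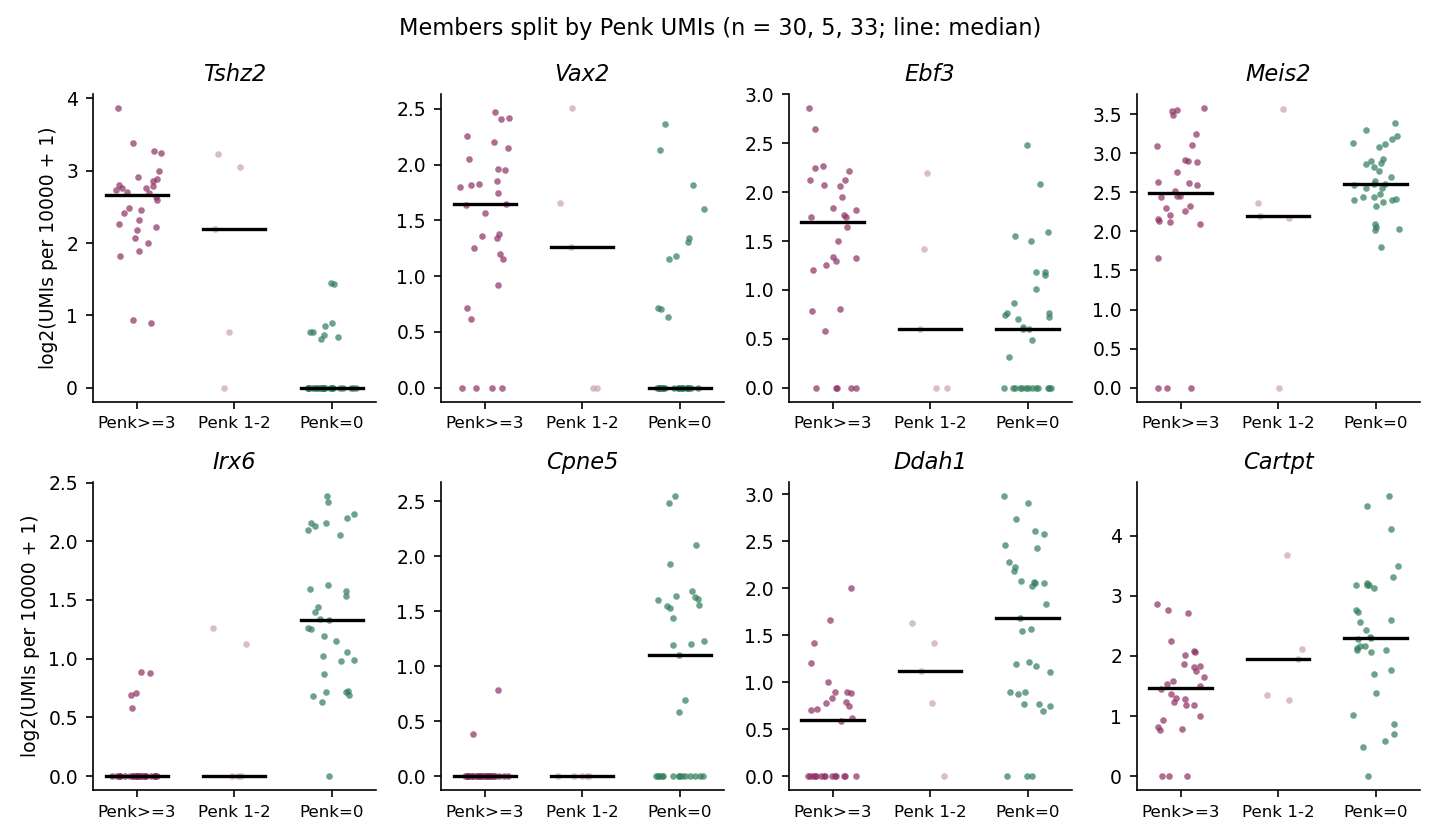
Level of 8 genes in each member as log2(UMIs per 10000 UMIs + 1), by Penk UMIs (30 members at 3 or more, 5 at 1 or 2, 33 at 0); lines are medians. Tshz2, Vax2 and Ebf3 are higher with Penk, Irx6, Cpne5 and Ddah1 lower, and Meis2 is at a like level apart from 4 members at 0.

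Clustering the 68 members into 4 groups, on the 500 most variable genes and 10 principal components, gave groups of 38 and 28 and a pair of single barcodes with 4953 and 4711 UMIs. The group of 38 held 32 of the 33 members without Penk and 4 of the 30 with it. The group of 28 held 25 members with Penk and none without. The larger group was led by Cpne5, Gm13205, Kcnb2, Irx6, Pcdh11x, Pcdh17, Wscd1 and Kcnc4. The smaller was led by Nnat, Penk, Tshz2, Fam19a2, Nrgn, Cpne9, Tmem158 and Lurap1l. Group sizes and these counts were the same after the genes of the rule were taken out of the clustering, a setting chosen after seeing the data. The groups are described by these genes and given no cell type name. Within the larger group the leading genes were not shared by all: Cpne5 was found in 20 and Wscd1 in 11 of its 38 barcodes. Over all 68 members, 20 had Cpne5 without Wscd1, 13 Wscd1 without Cpne5 and 1 both.

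The 4 members without Meis2 all lay in the group of 28 and all had Penk, at 830 CPM together against 278 CPM in the other 64. Isl1 had 2 UMIs in these 4, or 27.2 CPM, against 251 CPM in the others. Vax2 was found in all 4, at 4 to 9 UMIs. They numbered too few for more than these values.

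The same Penk division was made among barcodes without Neurod2, which share no barcode with the members, to see whether the genes that part with Penk are those of Neurod2 cells. This comparison was chosen after seeing the data. Among barcodes without Neurod2, 41 had 3 or more Penk UMIs and 729 had none. There 1.82% of 10701 genes were 2-fold higher with Penk and 6.71% lower. Of the 47 genes higher with Penk in members, 7 were 2-fold higher there, 5 were 2-fold lower and 29 had a ratio over 1. Of the 72 lower, 12 were 2-fold lower there and 2 higher. Irx6 was lower with Penk in both settings, by 6.63-fold (3.60 to 13.9) without Neurod2. Tshz2 was 1.32-fold higher (1.11 to 1.55) there, against 12.4-fold in members. Pcdh17 went the other way, 3.15-fold higher with Penk (2.44 to 4.03). Zic1 was 215-fold higher with Penk there (127 to 392), at 264 CPM against 1.23 CPM, and was not seen in members. Meis2 was 4.26-fold higher with Penk there (3.51 to 5.13), against 1.12-fold lower (0.937 to 1.34) in members. Whether the ratios of the 2 settings differ beyond replicate error was not tested.

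The nearest other cells were the 37 barcodes with as much Neurod2 but 20 or more Cartpt UMIs. They had 20 to 751 Cartpt UMIs, with a median of 105, against 0 to 19 in members with a median of 4, a gap set by the rule. Neurod2 itself was at 273 CPM in members and 257 CPM there. Of the 3227 genes that summed to 100 UMIs or more, 46 (1.43%) were 2-fold or more higher in members and 28 (0.868%) lower. Penk was 19.5-fold higher (11.0 to 38.1) and Meis2 11.1-fold higher (7.81 to 16.3) in members. Of the 37 Cartpt-rich barcodes, 4 had Penk and 7 had Meis2. A single barcode held 66.7% of the Penk UMIs of that class, and a single barcode 42.4% of its Meis2 UMIs.

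Several transcription factor genes differed between the 2 Neurod2 classes. Prdm8 was 7.67-fold higher in members (3.89 to 17.3), while Satb1 was 2.00-fold lower (1.53 to 2.62), and 1.94-fold lower without barcodes that had 50 or more UMIs of another class's markers. Pou4f2 was found in 62 of 68 members and 12 of 37 Cartpt-rich barcodes, 6.605-fold higher in members (4.11 to 11.2). Isl1 was 5.86-fold higher (4.01 to 8.87), Tshz2 6.43-fold higher (4.38 to 9.78) and Ebf1 2.86-fold higher (2.49 to 3.29). Tfap2d, an AP-2 family gene, was 3.09-fold lower (2.07 to 4.68). Pou4f1 differed little, at 429 CPM and 508 CPM. Tshz2 in the Cartpt-rich class, at 39.0 CPM, was close to its level in members without Penk, at 39.3 CPM. Irx6 was at 165 CPM in the Cartpt-rich class and 171 CPM in members without Penk.

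Other genes higher in members were Prlr (10.6-fold, 4.71 to 29.7), Gpx3, Nnat, Pcdh19 and BC030500. The potassium channel partner gene Kcnip4 was 9.81-fold higher (6.81 to 14.6). Kcnip4 was also found in 73.9% of thinned horizontal gate barcodes. Pcsk2, which encodes a convertase that cuts peptide precursors, was 4.53-fold higher (2.71 to 8.04). Without doublet calls Prlr was 28.1-fold and Pcsk2 9.84-fold higher. The calcium-binding protein genes Pvalb and Necab2 were 4.08-fold and 3.94-fold higher, and Pcp4 and Pcp4l1 2.90-fold and 2.10-fold lower.

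Genes lower in members were led by Gabrg3, which had 2 UMIs in 1 of 68 members and 110 in 28 of 37 Cartpt-rich barcodes, 82.8-fold lower (22.4 to 693). Trp53i11 had 4 UMIs in 2 members and 165 in 28 Cartpt-rich barcodes, 62.1-fold lower (23.8 to 231). For both genes the classes overlapped at 0 UMIs. The phosphodiesterase gene Pde1c was 8.28-fold lower (4.98 to 14.6), Tusc5 6.88-fold lower (4.35 to 11.3) and Ret, the receptor tyrosine kinase gene of the GDNF family, 5.10-fold lower (3.26 to 8.23). Syndig1l, Rasgrp2 and Dkk3 were between 3.69-fold and 4.35-fold lower. The guidance receptor gene Nrp2 was 2.59-fold lower (1.72 to 3.94).

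**Figure D5:**
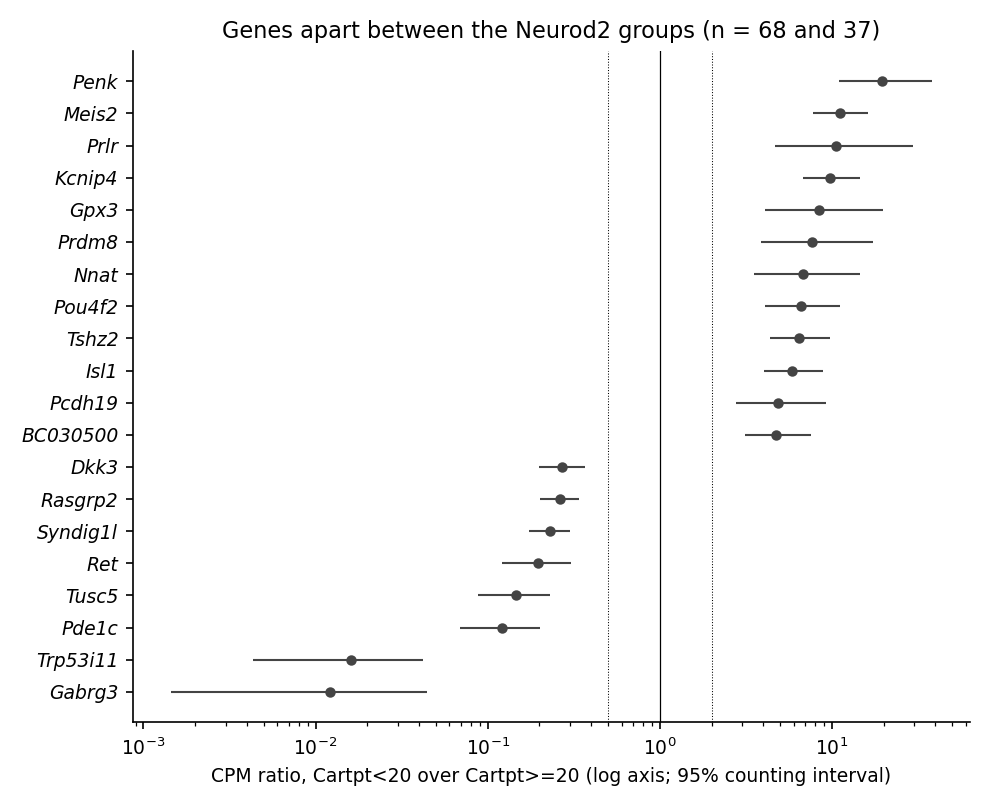
CPM ratio of the 12 highest and 8 lowest genes by the naming rule, members over Cartpt-rich Neurod2 barcodes, on a log axis with 95% counting intervals; dotted lines mark 2-fold either way. Penk and Meis2 are farthest to the right, and Gabrg3 and Trp53i11 farthest to the left.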

How the data were processed

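The authors deposited 1 table of raw counts, whole numbers of UMIs per gene and barcode without normalization, and a table of gene symbols. Cell Ranger, Seurat 2.2 and build mm10 are named, per the submitters' processing notes; how barcodes were called as cells is not given in the sources used here. Barcodes are not tied to retinas, so the 4 retinas were treated as 1 pooled sample. Testing of sums per retina, as first planned, was therefore not possible, and no result carries a p-value.

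The members, lists and tests were chosen with earlier results of these data known. UMIs were summed over each class and scaled to CPM, with exact Poisson intervals for levels, exact conditional intervals for ratios and Clopper-Pearson intervals for shares, at 95%. Genes were counted when their CPM ratio was 2 or more either way, with 100 or more UMIs over both classes (50 for the Penk division). The genes of the rule were left out of these counts. Where a class had 0 UMIs, a floor of 3 counts over the class was used. Genes named were the 15 highest and 10 lowest ratios against barcodes without Neurod2, and the 12 highest and 8 lowest in the Penk and Cartpt divisions, without mitochondrial and ribosomal protein genes and with no barcode holding 25% of the higher class's UMIs. List members past 2-fold and the marker and gate genes were also named. Isl1, Satb1, Kcnip4, Zic1, and the genes of the members without Meis2, were named after their values were seen, as were Jun's ranges and the levels of Tshz2 and Irx6 set across classes. Scrublet in scanpy 1.11.5 scored doublets, which were kept. Coordinates are from the GENCODE M21 annotation of GRCm38, the assembly mm10 stands for. Some genes that met the naming rule are not reported here. The ratio code was tested on simulated data. The work used matplotlib 3.10.9, scipy 1.17.1 and numpy 2.4.6 under Python 3.11.15.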

Additional observations from a re-analysis of the deposited data

How the results depend on the processing

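Depth and the gene minimum set how many genes can be counted, and no setting replaces replicates. No paired analysis was possible because barcodes are not tied to retinas, and leaving out each retina was not run for the same reason. The number of members was 35 with Cartpt under 5 UMIs and 105 with no Cartpt limit. Against barcodes without Neurod2, genes higher and lower numbered 69 and 268 with Neurod2 of 1 or more, and 177 and 658 with Cartpt under 5. With a minimum of 30, 300 or 1 UMI in place of 100, they were 276 and 832, 37 and 160, and 1293 and 908. For the Penk division the same minimums in place of 50 gave 110 and 160, 3 and 8, and 1107 and 1097. Against Cartpt-rich barcodes they gave 288 and 156, 11 and 9, and 1032 and 954, and thinning left 17 lower. The share of members with a UMI at a depth of 3000 UMIs was 75% for Meis2 and 17.6% for Prdm8. With Neurod2 of 1 or more, the log2 ratios of Nfia (0.22) and S100b (1.00) reversed, and the cause was not tested. Of the other named ratios under all settings run, 1161 values moved by less than their counting interval and 85 by more against barcodes without Neurod2. The numbers were 329 and 13 for the Penk division and 203 and 25 against Cartpt-rich barcodes. Of ratios past 2-fold, 47 of 101 fell short of it under at least 1 setting against barcodes without Neurod2, 4 of 30 in the Penk division and 2 of 33 against Cartpt-rich barcodes. None of the 30 and none of the 33 changed sign. Meis2 and Pou4f2, near equal in the Penk division, did change sign, with log2 ratios from -0.24 to 0.05 and from -0.44 to 0.06.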
